A study of Mus musculus with 4 samples.

Results

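The response of Mfp2-/- RAW264.7 cells to lipopolysaccharide (LPS) was read from a pair of arrays, one of untreated cells and one of LPS-stimulated cells, out of 4 arrays in the series. Their genes were the items described: 18388 of 37008 genes and transcripts on the array gave a signal well above background without LPS, with it or both, and were compared. RAW264.7 is a mouse macrophage-like cell line, and Mfp2 is another name of Hsd17b4, the gene of a multifunctional enzyme of peroxisomes. The other 2 arrays came from wild-type RAW264.7 cells, untreated and LPS-stimulated, and their values are set beside those of the knockout. The labels give no LPS dose or duration, no number of clones behind the Mfp2-/- cells and no way in which the gene was disrupted, and both Mfp2-/- arrays carry the same genotype. With 1 array in each group there is no replicate check of any difference, and neither tests nor p-values are given.

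LPS is a component of the outer membrane of Gram-negative bacteria that macrophages sense through Toll-like receptor 4 (TLR4) with its partners CD14 and MD-2. The receptor signals through the adaptor MyD88 towards NF-kB and AP-1, which switch on cytokine and chemokine genes, and through the adaptor TRIF towards IRF3 and interferon beta, which then acts back on the cell to switch on antiviral genes. Activated macrophages also make nitric oxide, itaconate and prostaglandins and slow their division. MFP2 catalyses the second and the third step of peroxisomal beta-oxidation, the shortening of very long and branched fatty acids.

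Levels are given as relative signal, the processed signal of the probe divided by the 75th percentile of the probes on its array, and differences as log2 of LPS over untreated. A gene was called higher or lower at a difference of at least 2-fold. A probe can be dim, that is not well above background, on 1 of the arrays. Its fold was then taken against the lowest signal that passed as well above background on that array, or against its own signal if that was higher, and is given as "at least". Such a gene could be called only towards the array where it was above background. In the text a pair of values after "at" is the relative signal untreated and then with LPS, and a value in brackets or after "differed by" is the log2 difference, in Mfp2-/- cells unless wild type is named. Levels of different genes come from different probes and are not compared with each other. In these bulk samples fewer cells of a kind and less RNA per cell cannot be told apart.

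The share of spots well above background lay between 47.4% and 49.7% on the 4 arrays, with 0 saturated spots. The spread between replicate spots gave the difference of the Mfp2-/- arrays a technical SD of 0.0898 on the log2 scale, and that of the wild-type arrays 0.0543. This error covers the array and not the culture. All 4 arrays lay on 1 slide, each in its own position, so position and group cannot be told apart. The cells carried the markers of their label, since all 10 macrophage markers were well above background on all 4 arrays, with a summed relative signal of 1222 in untreated and 1293 in LPS-stimulated Mfp2-/- cells. Of 37 markers of T and NK, B, neutrophil and mast, or fibroblast, endothelial and epithelial cells, 7 were above background in untreated and 10 in LPS-stimulated Mfp2-/- cells. Hsd17b4 itself was still read by its single probe, at a level of 6.88 untreated and 4.01 with LPS in cells labelled Mfp2-/-, against 12.5 and 9.03 in wild type. Its log2 difference with LPS was -0.78 in Mfp2-/- cells and -0.47 in wild type, below the 2-fold threshold in both. The part of the gene that was disrupted is not given in the sources used here, so this probe may lie outside it and does not check the label.

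In Mfp2-/- cells 2027 genes were higher with LPS (11.0% of those compared) and 2294 were lower (12.5%), of which 410 and 505 rested on a bound. In wild-type cells, 1768 of 18200 genes were higher (9.71%) and 1562 lower (8.58%). The 2 directions differed in shape. Among 15961 genes above background on both Mfp2-/- arrays the median difference was 0.0354 and the middle 50% lay between -0.47 and 0.44. The 99th percentile was 3.31 and the 1st percentile -2.50. At 16-fold or more there were 110 higher and 15 lower genes, and at 64-fold or more 27 higher and 1 lower. The genes that differed most were thus mainly induced ones, while at this scaling decreases of 2-fold or more were the more frequent. This excess of decreases depended on the signal. The genes above background on both arrays were put in 5 bins of rising signal. Bins 1, 2 and 3 had 368, 549 and 439 lower genes against 296, 337 and 308 higher. In the brighter bins 4 and 5 the order was reversed, with 299 and 134 lower against 366 and 310 higher. The genes called higher carried 4.40% of the summed signal in untreated and 13.6% in LPS-stimulated cells, and those called lower 6.81% and 1.97%.

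The balance of higher and lower genes also depends on the scaling, which sets the zero. With the arrays centred on 7 spike-in probes the median gene moved by -0.23, and 1474 genes were higher and 3191 lower, so that 31.6% of calls were increases in place of 46.9%. With the arrays centred on their median signal the shift was 0.14, and 2485 genes were higher and 1865 lower, with 57.1% increases. Spike-in centring lowers every difference by the same amount and median scaling raises it, so the sign of a difference close to 0 depends on the scaling. Of 1424 called genes with 2 or more probes above background, 1217 (85.5%) had all these probes on the same side of 0.

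**Figure D1:**
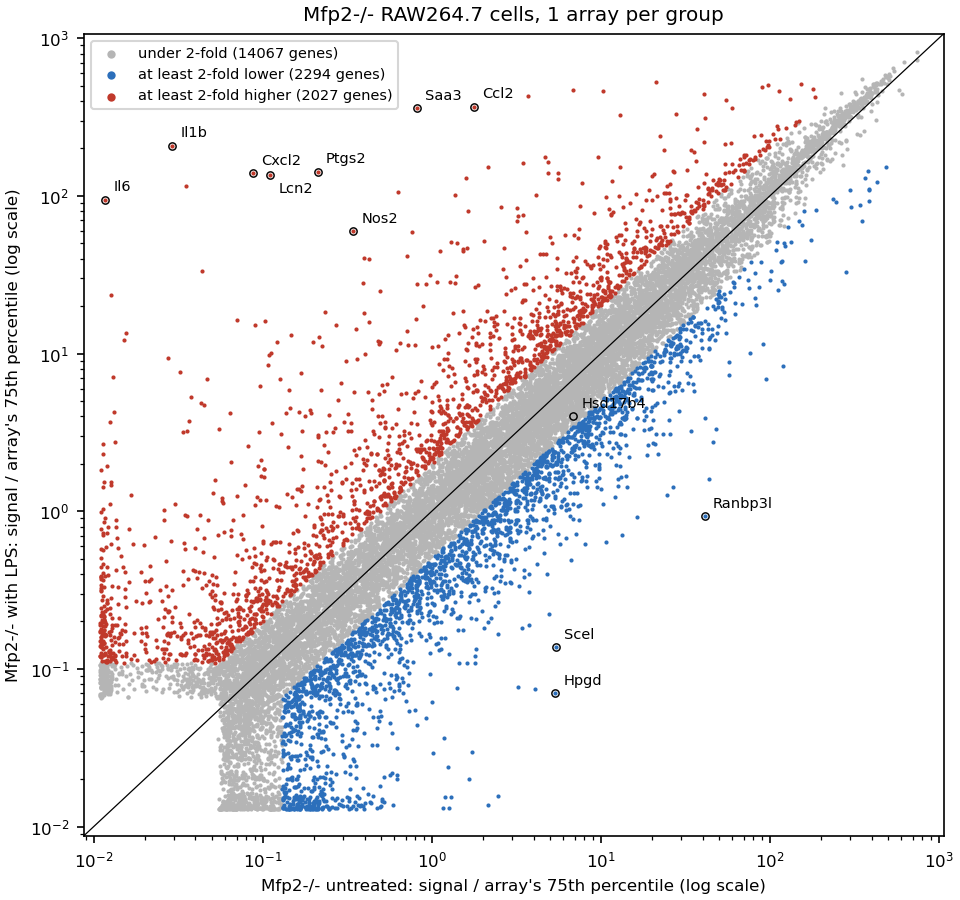
Relative signal of 18388 genes in untreated (x axis) and LPS-stimulated (y axis) Mfp2-/- cells, both on log scales, 1 array each. Each point is a gene, red where called higher (2027), blue where called lower (2294) and grey otherwise (14067). The line marks equal signal, and points near the left and lower edges are dim on 1 array and were judged by a bound. Induced cytokine and acute phase genes such as Cxcl2 and Il6 lie far above the line, and the largest decreases, such as Hpgd, lie closer to it.

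The largest increases measured on both arrays were genes of leukocyte attraction, acute phase and mediator synthesis. Cxcl2, a neutrophil-attracting chemokine gene, was at 0.0873 untreated and 139 with LPS, a 1591-fold difference, and at 0.637 and 81.6 in wild type. Lcn2, which encodes the siderophore-binding lipocalin 2, was at a relative signal of 0.110 untreated and 136 with LPS in Mfp2-/- cells. Ptgs2, the inducible cyclooxygenase gene, was at 0.211 and 142. In all 3 the LPS-stimulated Mfp2-/- array stood above the LPS-stimulated wild-type array, where Lcn2 was at 45.9 and Ptgs2 at 77.4. These genes were chosen by their increase on the Mfp2-/- arrays, which favours a high level there. Saa3, a serum amyloid gene, was 439.8-fold higher, the formyl peptide receptor gene Fpr2 233-fold, the monocyte attractant gene Ccl2 208-fold and the nitric oxide synthase gene Nos2 174-fold. Cd40, a costimulatory receptor, was 169-fold higher, Hdc, the histamine-forming enzyme, 167-fold and Gbp2, an interferon-induced GTPase, 155-fold. Ccl2 was at 1.78 and 369 in Mfp2-/- cells and at 21.1 and 549.7 in wild type. On the log2 scale its untreated levels thus lay further apart than its levels with LPS.

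A further set had no measurable start. Il1b, Csf3, Il6, Il1a and Urah were below background in untreated Mfp2-/- cells and at least 3806-, 2129.6-, 1733-, 609- and 429-fold higher with LPS. The first 4 encode cytokines, and Urah encodes an enzyme of urate breakdown. In wild type the same 5 genes were at least 3658-, 1138-, 359-, 517- and 238-fold higher, also from below background.

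The largest decrease was that of Hpgd, a dehydrogenase gene of prostaglandin breakdown: its level was 5.38 untreated and 0.0703 with LPS, 76.6-fold lower, and in wild type 1.41 and 0.111. Ranbp3l was 44.4-fold lower, Scel, a cornified envelope gene, 39.4-fold, Kank2 21.9-fold, Fndc10 19.8-fold and Cnnm1 19.0-fold. Tbc1d4, a regulator of glucose transporter traffic, was 18.6-fold lower, the ubiquitin ligase gene Neurl1b 17.9-fold and the linker histone gene H1f5 16.9-fold. For all 9 of these genes the untreated Mfp2-/- level lay above the untreated wild-type level, as the paired markers of the plot of largest changes show. They were chosen by their decrease from that level, which favours this order, so it is not a separate result. The 2 untreated levels of H1f5 lay close, at 46.2 in Mfp2-/- and 43.9 in wild-type cells. Mettl7a2 stands apart, since it was 27.3-fold lower in Mfp2-/- cells, from 43.4 to 1.59, and at 44.1 and 42.5 in wild type, a difference of -0.0523. Lower by a bound were Cd101 (at least 54.8-fold), the co-repressor gene Cbfa2t3 (at least 33.2-fold) and the adhesion receptor gene Adgre5 (at least 26.5-fold). The bounds of Pnpla8 (at least 37.8-fold lower) and Arhgap31 (at least 42.2-fold lower) hold for 1 probe each, while a second probe of these genes gave 1.08 and -0.0435 on the log2 scale.

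**Figure D2:**
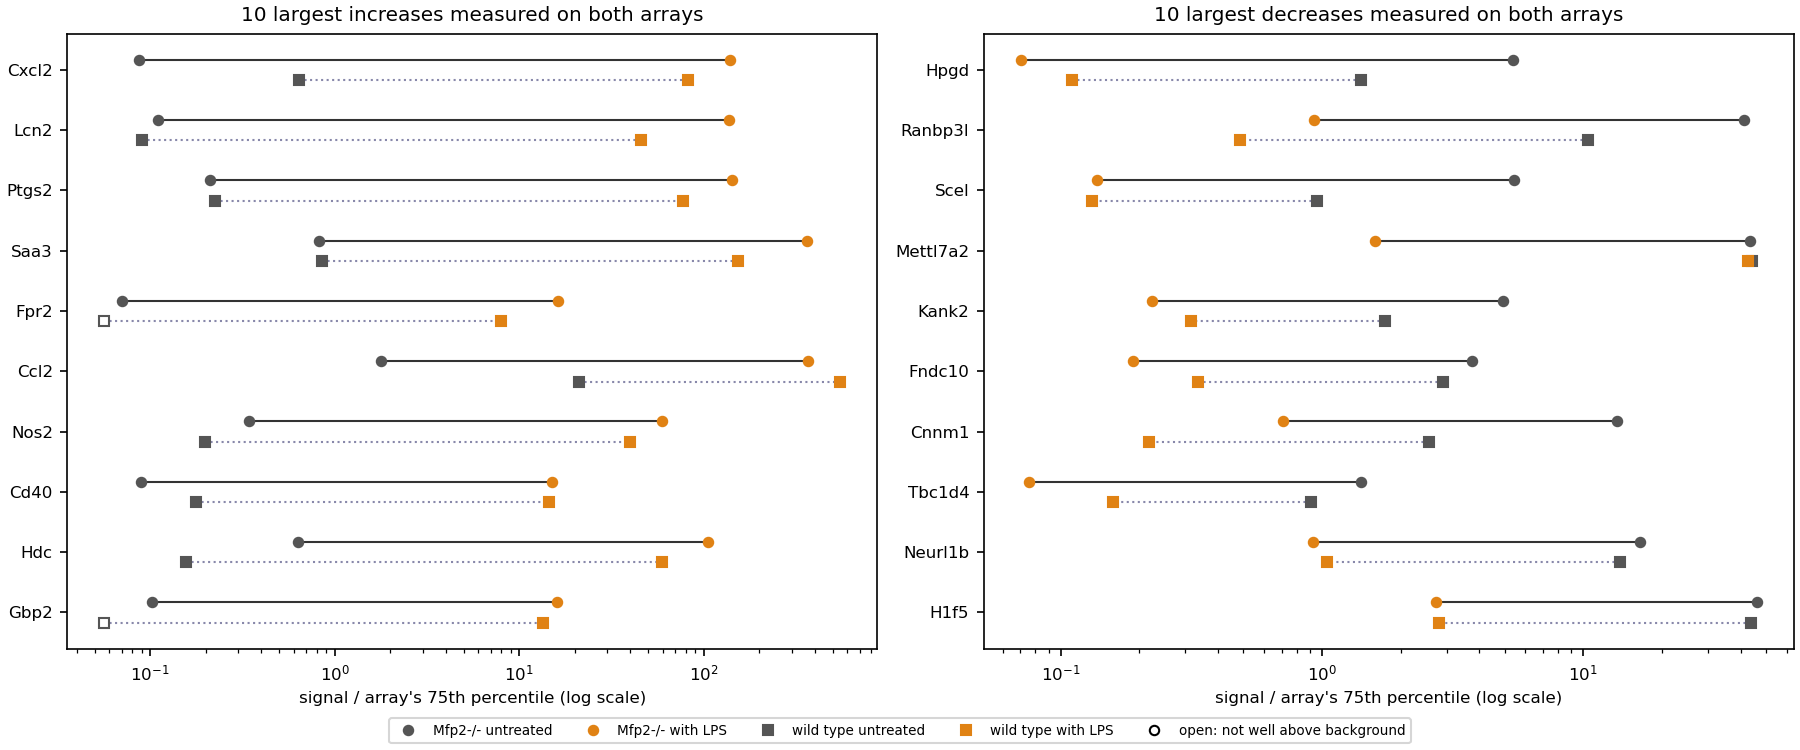
Relative signal (log scale) of the 10 genes with the largest measured increase (left) and decrease (right) in Mfp2-/- cells, 1 array per group. Circles joined by a solid line are Mfp2-/- cells and squares joined by a dotted line wild type, grey untreated and orange with LPS, and open symbols are not well above background. The direction is the same in both genotypes for every gene shown, and Mettl7a2 is the gene whose wild-type symbols nearly coincide.

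The response was then read through 68 gene lists, ordered by the role of their members. A list is described by its counts and by the median difference of its measured members, beside 11.0% higher, 12.5% lower and a median of 0.0354 over genes measured on both arrays. A share near this background is not a result about the list.

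**Figure D3:**
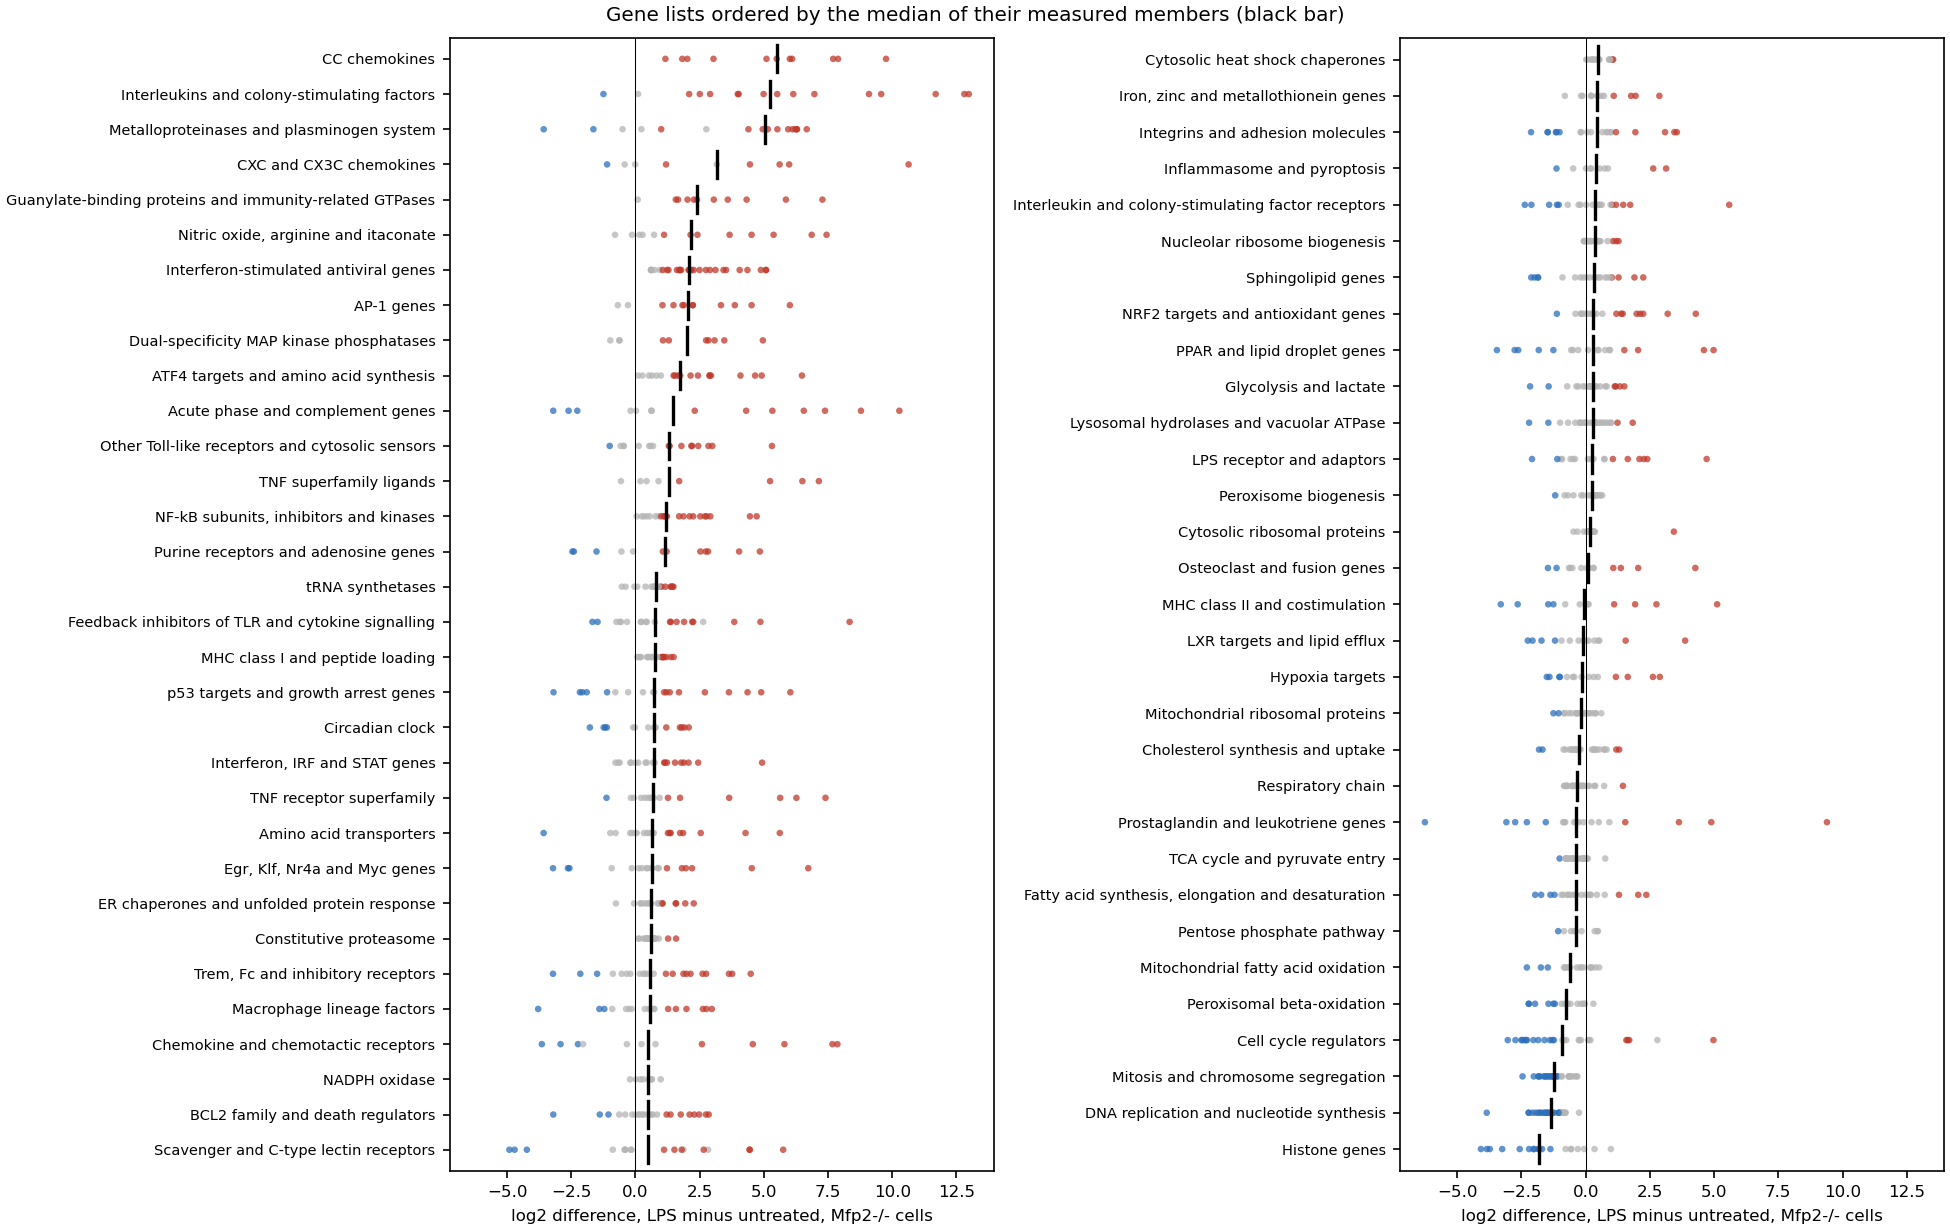
Log2 difference between LPS-stimulated and untreated Mfp2-/- cells for the members of each list with at least 8 measured genes, markers of cell types left out. Each point is a gene, red where called higher, blue where called lower and grey otherwise, with dim probes at their own signal, and the black bar is the median. Lists run from CC chemokines, with a median of 5.50, to histone genes, with -1.82.

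Of 18 measured LPS receptor and adaptor genes, 6 were higher and 2 lower, with a median of 0.25 (0.26 in wild type). Tlr4 was at a relative signal of 16.7 untreated and 19.2 with LPS, a difference of 0.20, and its other probes gave as little as -0.73. Ly96, which encodes MD-2, was at 21.7 and 16.3, a difference of -0.42, while its second probe gave 1.08. Cd14, the co-receptor that hands LPS to the complex, was higher, at 132 and 412. Irak3, an inhibitory member of the IRAK kinases, showed the largest difference of the list, at 0.163 and 4.26 (log2 difference 4.71; 2.0 in wild type). Irak2 was also higher (2.40), as were the TRIF gene Ticam1 (2.26), Pik3ap1 (2.09) and Tirap (1.06). The activating kinase genes Irak4 (-0.92) and Irak1 (-0.95) were not called, and a second probe of Irak4 gave 0.40. Tab1, a subunit of the TAK1 complex, was lower (-1.10). Sarm1, a further TIR-domain adaptor gene, was at least 2.58-fold lower. Myd88 (0.73), Tab2 (0.72), Map3k7 (0.31), Traf6 (0.0872), Traf3 (-0.50) and Ticam2 (-0.59) stayed under 2-fold by their main probe, while another probe of Traf6 gave 1.05.

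Of 17 measured genes of other Toll-like receptors and of sensors in the cytosol 9 were higher and 1 lower, with a median of 1.3 (0.87 in wild type). Zbp1, a sensor of Z-form nucleic acids, was at a relative signal of 1.12 untreated and 44.7 with LPS, Ifih1, which encodes the RNA sensor MDA5, at 1.85 and 14.8, and Ddx58, which encodes RIG-I, at 18.0 and 62.4. Dhx58 differed by 2.18, the peptidoglycan sensor Nod2 by 2.84, and Nod1 at least 4.37-fold higher. Among Toll-like receptors Tlr1 (log2 difference 2.45), Tlr3 (1.33) and Tlr6 (1.3) were higher and Tlr13 (-1.0), a receptor of bacterial ribosomal RNA, was lower, with 0.19 in wild type. Tlr2 (0.69), Tlr7 (-0.46) and Tlr9 (0.13) were not called, nor were Cgas (-0.58), Sting1 (0.59), Mavs (-0.45) and Unc93b1 (0.54).

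In the inflammasome list 2 of 10 genes were higher and 1 lower. Nlrp3, the sensor that assembles the best known inflammasome, was at a relative signal of 0.0761 untreated and 0.666 with LPS, and Casp4, the caspase that binds LPS in the cytosol, at 5.53 and 34.2. Nek7, a kinase that NLRP3 needs, was lower (-1.14). Casp1 differed by 0.87 and the pore-forming gasdermin gene Gsdmd by 0.56 in Mfp2-/- cells, under the threshold, against 1.93 and 1.24 in wild type, above it, and this gap between genotypes was not tested. Pycard (log2 difference 0.75), Aim2 (0.22), Nlrc4 (0.19), Naip5 (0.0160) and Nlrp1b (-0.49) were not called.

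By their main probe all 22 measured genes of NF-kB subunits, inhibitors and kinases lay above 0 (21 with spike-in centring). Of these, 15 were called higher and 0 lower (median 1.19, with 13 of 22 and 1.27 in wild type). Traf1 was at a relative signal of 3.17 untreated and 83.7 with LPS, a difference of 4.72 (2.80 in wild type). The inhibitors Nfkbia and Nfkbib were at 34.0 and 196, and at 4.72 and 30.8. Nfkbiz, a nuclear IkB protein that NF-kB needs at a second wave of genes, was at 1.29 and 28.3. Of the subunits Nfkb2 differed by 2.92, Rel by 2.25 and Nfkb1 by 1.70, while Rela, the p65 subunit, differed by 0.32. The deubiquitinase gene Tnfaip3 differed by 2.11, Bcl3 by 1.87, Ikbke by 2.77, Tnip1 by 1.23 and Tnip3 by 1.16. Relb (log2 difference 1.13), Ikbkg (1.11) and Map3k8 (1.0) were called on their main probe, but other probes of these genes gave as little as -0.33, -1.05 and -0.11. The kinase genes Chuk (0.44) and Ikbkb (0.0463) were not called, and neither were Nfkbid (0.90), Nfkbie (0.78), Tnip2 (0.55) and Cyld (0.25). Other probes of Chuk, Ikbkb and Cyld gave as little as -0.20, -0.36 and -2.44.

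Of 21 measured feedback inhibitors of cytokine signalling 9 were higher and 2 lower (median 0.76). Cish was at least 77.5-fold higher, and Socs3, which blocks the IL-6 receptor, was at a relative signal of 1.61 untreated and 46.8 with LPS. Zfp36, which encodes the mRNA-destabilising tristetraprolin, was at 1.88 and 27.0, a difference of 3.85 (2.41 in wild type), and its relative Zfp36l2 was lower (-1.47). Rcan1 (log2 difference 2.25), Usp18 (2.21), Socs1 (1.89), Zc3h12c (1.6), Zc3h12a (1.38) and Trafd1 (1.35) were higher, and the receptor gene Sigirr was lower (-1.67). The phosphatase genes Ptpn6 (0.44), Ptpn2 (0.41), Ptpn1 (0.24) and Inpp5d (-0.61) stayed under 2-fold, as did Spry2 (0.76), Spred1 (-0.74), Tnfaip8l2 (0.21), Pdlim2 (-0.33) and Zfp36l1 (-0.56). Socs2 was above background with LPS alone and its bound stayed under 2-fold.

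Of 10 measured dual-specificity phosphatases 7 were higher and 0 lower (median 2.03; 1.29 in wild type). Dusp5, which acts on ERK in the nucleus, was at a relative signal of 0.145 untreated and 4.53 with LPS, and Dusp2 at 9.16 and 77.4. Dusp16 (log2 difference 2.84), Dusp4 (2.75), Dusp6 (1.3) and Dusp1 (1.07) followed, and Dusp8 was at least 7.76-fold higher. Dusp7 (-0.62), Dusp3 (-0.63) and Dusp14 (-0.98) were not called. Of 12 measured AP-1 genes 10 were higher (median 2.06), where wild type had 7 higher and 1 lower (median 1.12). Fosl1, a Fos family member, was at 0.0963 and 6.22 in Mfp2-/- and at 0.773 and 5.01 in wild-type cells. Its levels with LPS lay within 2-fold of each other, and its untreated levels did not. Maff (4.52), Atf3 (3.87), Batf2 (3.33), Jund (2.24), Junb (2.23), Jun (1.89), Mafk (1.48) and Mafg (1.05) were higher, and Fosb at least 3.56-fold. Fos itself differed by -0.29 and Fosl2 by -0.68.

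Early growth response, Klf, Nr4a and Myc genes were called in either direction, 6 higher and 3 lower among 19 measured, around a median of 0.63. Myc was at least 86.9-fold higher, from below background to 4.75, and Ier3, a survival gene, was at a relative signal of 3.23 untreated and 74.7 with LPS. Klf6 (log2 difference 2.21), Nr4a1 (1.97), Ier2 (1.81) and Ier5 (1.23) were higher. Klf10 was at 5.71 and 0.617 and Klf4 at 6.27 and 1.01, lower by 9.25- and 6.19-fold, and Egr3 was at least 5.93-fold lower. Egr1 (0.86), Egr2 (0.13), Nr4a2 (0.91), Nr4a3 (0.25), Klf2 (-0.92), Klf3 (0.48), Klf7 (0.65), Klf9 (0.63), Klf13 (0.43) and Mxd1 (-0.14) were not called.

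Of 20 measured interferon, IRF and STAT genes 9 were higher (6 with spike-in centring) and 0 lower. Ifnb1, the interferon beta gene, was at a relative signal of 0.137 untreated and 4.17 with LPS in Mfp2-/- cells. Irf7, which amplifies interferon production, was at 90.2 and 490.4, and the signal carrier Stat2 was at 4.66 and 10.9. Irf8 (log2 difference 1.89), Stat3 (1.78, with -0.0817 for a second probe), Jak2 (1.54), Tbk1 (1.15) and Irf5 (1.12) were higher too. Irf3, which acts by phosphorylation and not by its level, differed by -0.00550. Irf4 differed by 0.75 in Mfp2-/- cells and 2.52 in wild type. Irf9 (0.68), Irf1 (-0.17), Irf2 (-0.78), Stat5a (-0.20), Stat6 (0.11), Ifnar1 (0.39), Ifnar2 (-0.61), Ifngr1 (-0.67) and Ifngr2 (0.44) stayed under 2-fold.

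All 30 measured interferon-stimulated antiviral genes lay above 0, with spike-in centring too, and 24 were called higher and 0 lower, with a median of 2.08. In wild type 29 of 30 were higher, with a median of 2.94. Ifit3, an RNA-binding antiviral protein gene, was at a relative signal of 0.818 untreated and 27.8 with LPS, and at 0.575 and 46.2 in wild type. Rsad2, which encodes viperin, was at 1.52 and 44.8, Isg15, the ubiquitin-like modifier, at 41.0 and 441, and Mx1, a dynamin-like GTPase gene, at 0.245 and 4.09. With LPS Ifit3, Rsad2 and Mx1 had the higher level in wild type, where Rsad2 was at 51.6 and Mx1 at 5.33. Untreated, Ifit3 had the higher level in Mfp2-/- cells. The smaller median in Mfp2-/- cells does not say whether untreated levels or levels with LPS lay apart. Isg15 was at 447 there, nearly the same as in Mfp2-/- cells. Isg20 differed by 5.08, Ifit1 by 4.36 and Ifit2 by 3.53. Guanylate-binding proteins and immunity-related GTPases, which attack the vacuoles of intracellular microbes, were higher in 10 of 11 cases (median 2.40, or 2.27 with bounded genes at their bound). Gbp3 was at 0.718 and 41.7, and Gbp6 at 0.0576 and 1.16. Gbp7 (3.59) was higher, and Gbp5 (0.0889) was the member not called.

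The promoters of 3 of these genes are shown since their short stretches hold the interferon response motif. Each line gives the 200 bases before the RefSeq transcription start in the GRCm38.p6 build, 5′ to 3′ on the strand of the gene, with matches of GAAANNGAA on either strand in capitals. Ifit3 lies at chr19:34583329-34583528, plus strand, Ifit1 at chr19:34640689-34640888, plus strand and Rsad2 at chr12:26456453-26456652, minus strand.
Ifit3: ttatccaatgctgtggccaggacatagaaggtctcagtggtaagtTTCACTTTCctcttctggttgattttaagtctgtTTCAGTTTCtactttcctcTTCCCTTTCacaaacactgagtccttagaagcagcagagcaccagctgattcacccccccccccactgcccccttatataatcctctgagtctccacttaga
Ifit1: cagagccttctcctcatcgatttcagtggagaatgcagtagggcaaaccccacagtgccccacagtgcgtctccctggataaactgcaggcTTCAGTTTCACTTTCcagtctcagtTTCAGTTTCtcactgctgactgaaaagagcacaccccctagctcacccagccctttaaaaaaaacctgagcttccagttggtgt
Rsad2: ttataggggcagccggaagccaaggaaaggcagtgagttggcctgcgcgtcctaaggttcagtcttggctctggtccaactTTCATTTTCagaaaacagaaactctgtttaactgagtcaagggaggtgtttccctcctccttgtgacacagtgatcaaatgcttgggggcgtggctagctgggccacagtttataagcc
The motif occurs in 13 of 27 promoters of this list in the table, in windows from 250 bases before to 50 after the start, in 11.4% of promoters of genes higher with LPS, 6.66% of those of genes lower, 7.45% of those of genes compared and 8.56% of all 32851 promoters. A match is a description of letters and not of binding.

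Of 16 measured interleukin and colony-stimulating factor genes 14 were higher and 1 lower. Their median was 5.26, and 4.84 once the 8 bounded genes were set to their bound. These 8 were above background with LPS only and could not have been called lower. Il1rn, the antagonist of the IL-1 receptor, was at a relative signal of 2.15 untreated and 152 with LPS, and Osm, which encodes oncostatin M, at 0.396 and 18.2. Csf2 and Lif were at least 129.7- and 25.9-fold higher from below background, Il11 and Il23a at least 5.995- and 3.26-fold. Csf1 (log2 difference 4.99), Il27 (3.98), Ebi3 (2.51) and Il18 (2.09) were higher too. Il15 differed by 0.10 in Mfp2-/- cells, at 1.96 and 2.11, against 1.86 in wild type, at 0.926 and 3.35. Il16 was lower (-1.25). Il10, Il12a, Il12b, Il19, Il33 and Il1f9 were not well above background on either array.

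Receptors for these cytokines were divided, with 5 higher and 5 lower among 20 measured. Il13ra2, a decoy receptor for IL-13, was at least 14.2-fold higher and the common gamma chain Il2rg differed by 1.73. Lower were the receptors of the colony-stimulating factors, Csf1r at a relative signal of 247 untreated and 92.1 with LPS, Csf3r at 149.8 and 68.9, and Csf2rb2 (log2 difference -1.05). Il6ra was at 30.4 and 5.87 (-2.37; -1.20 in wild type). Csf2rb differed by -0.70 in Mfp2-/- cells and 1.01 in wild type. Il21r was at least 4.33-fold lower by its main probe, with 0.22 for a second probe.

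In the TNF superfamily 4 of 8 measured ligands were higher. Tnf was at a relative signal of 4.65 untreated and 176 with LPS, and at 10.70 and 143 in wild type. Lta, which encodes lymphotoxin alpha, was at least 97.4-fold higher in Mfp2-/- cells, Tnfsf15 at least 59.3-fold, and Ltb differed by 1.70. Of 16 receptors 6 were higher and 1 lower. Tnfrsf1b, the second TNF receptor, was at 0.769 and 59.2. Fas differed by 5.64 by its main probe and -0.40 by another. Tnfrsf9 was at least 4.85-fold higher, and Tnfrsf11a, the RANKL receptor, was lower (-1.13).

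Of 14 CC chemokine genes on the array 11 were measured, and all 11 were higher (median 5.50, or 3.85 with 5 bounded genes at their bound). The bounded genes were above background with LPS only and could not have been called lower. Ccl4 was at a relative signal of 10.3 untreated and 466 with LPS in Mfp2-/- cells and at 60.6 and 466 in wild type. Ccl5 was at 6.86 and 471, and at 2.37 and 429. Thus for Ccl4 the lower untreated level, and for Ccl5 the higher one, was in Mfp2-/- cells. Ccl3 differed by 3.04, Ccl9 by 2.02 and Ccl6 by 1.17 (3.48 in wild type). Ccl17 and Ccl7 were at least 245- and 141-fold higher, and Ccl22, Ccl12 and Ccl24 at least 14.4-, 6.95- and 2.99-fold. Of 9 CXC and CX3C genes 5 were higher and 1 lower. Besides Cxcl2, the T cell attractant gene Cxcl10 was at 3.45 and 75.9, Cxcl3 and Cx3cl1 were at least 13.3- and 12.4-fold higher, Cxcl16 differed by 1.19 and Cxcl14 by -1.10.

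The stretches before the starts of Cxcl2 and Il6 are printed because these genes were among the largest responders and hold a match of the NF-kB motif GGGANNTTC, in capitals, on either strand. Cxcl2 lies at chr5:90903699-90903898, plus strand and its matches on both strands overlap. Il6 lies at chr5:30012914-30013113, plus strand and its match starts 44 bases before the start.
Cxcl2: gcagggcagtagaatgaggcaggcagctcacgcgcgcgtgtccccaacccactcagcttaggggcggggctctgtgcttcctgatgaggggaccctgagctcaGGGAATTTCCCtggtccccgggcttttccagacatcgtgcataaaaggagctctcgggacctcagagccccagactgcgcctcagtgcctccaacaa
Il6: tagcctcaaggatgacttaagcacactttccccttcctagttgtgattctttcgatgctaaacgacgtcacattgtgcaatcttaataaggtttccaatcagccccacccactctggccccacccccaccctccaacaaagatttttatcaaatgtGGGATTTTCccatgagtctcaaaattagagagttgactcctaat
This motif was present in 5.11% of promoters of genes higher with LPS, 4.35% of those lower, 4.002% of those of genes compared and 3.94% of all promoters. In 4 of 23 promoters of interleukin and colony-stimulating factor genes, and in 4 of 25 of NF-kB pathway genes, it was found. None of 8 CC chemokine promoters in the table held it, which says only that these letters are not in those windows. The AP-1 motif TGANTCA was in 8.75% of promoters of genes higher, 5.08% of those lower, 5.58% of those of genes compared and 7.81% of all.

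Of 12 measured chemotactic receptor genes 5 were higher and 3 lower. Among receptors of formyl peptides and complement Fpr1 was higher by at least 50.05-fold, C5ar1 at a relative signal of 0.497 untreated and 11.8 with LPS, C3ar1 (2.59) and Ccrl2 (5.80), an atypical receptor that binds chemerin. Lower were Cx3cr1, the fractalkine receptor of resident macrophages, at 76.0 and 10.1, Cxcr3 at 4.15 and 0.880, and S1pr1, by at least 3.85-fold. Acute phase and complement genes had 7 of 14 higher and 3 lower. Saa1 was at 0.424 and 39.8, Cfb, a factor of the alternative complement pathway, at 0.354 and 14.3, and C3 at 1.85 and 9.18. C4b and Hp were lower by at least 2.16- and 2.77-fold.

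Of 13 nitric oxide, arginine and itaconate genes 8 were higher and 0 lower (median 2.15). Nos2 was at a relative signal of 0.343 untreated and 59.6 with LPS, and at 0.198 and 39.6 in wild type. Acod1, which makes itaconate, was at 3.72 and 433, Gch1, which supplies the cofactor of Nos2, at 5.61 and 129, and Ass1, which returns citrulline to arginine, at 0.266 and 3.38. Arg2 was at least 10.67-fold higher, and the polyamine genes Odc1 and Sat1 differed by 2.42 and by 2.15. No subunit of the NADPH oxidase passed the threshold among 9 measured, the nearest being Cybb at 15.2 and 30.0 (log2 difference 0.99).

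Oxidant defence genes under the factor NRF2 had 8 of 21 members higher and 1 lower. Slc7a11, the cystine importer, was at a relative signal of 0.710 untreated and 13.9 with LPS, Hmox1, the haem oxygenase, at 10.8 and 98.8, and Sod2 at 3.29 and 15.6. Srxn1 (log2 difference 2.12), Prdx5 (1.98), Gclm (1.44) and Txnrd1 (1.38) were higher, and the glutathione peroxidase gene Gpx1 was lower (-1.12). Nfe2l2, which encodes NRF2, differed by -0.40. Of 14 iron, zinc and metallothionein genes 4 were higher, with Mt2 at 55.4 and 405 (2.87; 1.41 in wild type), the phagosomal metal pump Slc11a1 (1.94) and the iron exporter Slc40a1 (1.77). Ferritin genes differed by 0.21 (Fth1) and by 0.22 (Ftl1).

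The prostaglandin and leukotriene list had 4 of 19 genes higher and 5 lower (8 lower with spike-in centring), and its median was -0.36. Ptgs1, the constitutive cyclooxygenase, was at a relative signal of 14.2 untreated and 1.67 with LPS, lower by 8.50-fold, in contrast to Ptgs2. The leukotriene genes Alox5, Ltc4s and Alox5ap were at 12.95 and 1.93, at 5.22 and 1.07, and at 39.7 and 13.5, and all 3 were lower. The prostacyclin receptor Ptgir was higher, at 0.509 and 6.31, and the receptor Ptger2 at least 5.99-fold. Ptges, the inducible prostaglandin E synthase, differed by -0.26. Matrix proteases and their inhibitors numbered 11 higher and 2 lower among 16, and their median was 5.05, or 3.78 once the 8 bounded genes were set to their bound. Mmp9 was at a relative signal of 0.108 and 8.44, Plaur at 3.49 and 161 and Timp1 at 1.40 and 49.95. Mmp13 and Mmp3 were at least 16.6- and 15.7-fold higher, Mmp19 was lower (log2 difference -1.64) and Timp2 at least 2.46-fold lower.

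Among scavenger and C-type lectin receptors of the cell surface 7 of 18 were higher and 3 lower, and their median of 0.48 was -0.18 with no filter on dim probes. Msr1, the class A scavenger receptor, was at a relative signal of 0.127 untreated and 6.86 with LPS in Mfp2-/- cells. In wild type it was at 2.36 and 12.5, and on the log2 scale its untreated levels lay further apart than its levels with LPS. Clec4e, the receptor mincle, was at 3.20 and 69.8, and Clec4n differed by 4.45. Of the TAM receptors, which clear dying cells, Axl was higher (log2 difference 2.66) and Mertk lower by at least 6.44-fold. Clec4a3 and Clec10a were lower by at least 12.6- and 6.59-fold. In the Trem, Fc and inhibitory receptor list 10 of 22 were higher and 3 lower. Fcgr2b, the inhibitory Fc receptor, was at 1.33 and 18.2, Fcgr4 differed by 2.61, Siglec1 by 4.49 and the ligand Cd47, which restrains phagocytosis, by 1.87. Trem2 was at 112 and 25.3, 4.43-fold lower (-1.91 on the log2 scale in wild type). Fcgr3 differed by -3.21 by its main probe and 1.74 by another, so its direction is uncertain.

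Integrins and adhesion molecules had 5 of 20 higher and 6 lower. Itga5, the fibronectin receptor subunit, was at a relative signal of 0.544 untreated and 6.38 with LPS, the hyaluronan receptor Cd44 at 4.98 and 54.6 and Itgal at 1.93 and 16.4. Itga4 was lower, at 121 and 27.8. Itgb3 was lower in Mfp2-/- cells (log2 difference -1.13) and differed by 0.96 in wild type, which was not called. All 18 measured genes of MHC class I and peptide loading lay above 0, and 14 with spike-in centring. Of these, 7 were called higher (2 with spike-in centring, 11 in wild type), with medians of 0.75 in Mfp2-/- and 1.12 in wild-type cells. The peptide transporter Tap1 was at 6.26 and 17.6, and Tapbp (1.38), H2-D1 (1.09) and the immunoproteasome subunit Psmb10 (1.05) were higher. The other immunoproteasome subunits, Psmb8 (0.64) and Psmb9 (0.19), were not called in Mfp2-/- cells and differed by 1.40 and 1.45 in wild type.

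MHC class II and costimulation genes had no common direction, with 4 of 12 higher and 4 lower (median -0.0737; 0.62 in wild type). The median was above 0 with median scaling and with the mean of a gene's probes. Cd274, which encodes PD-L1, was at a relative signal of 0.371 untreated and 2.50 with LPS, Cd83 differed by 1.93 and Icosl at least 7.06-fold higher. The peptide exchange genes H2-DMa (log2 difference -1.46) and H2-DMb1 (at least 3.68-fold) were lower, as was Cd276 (-2.65). Cd86 was at 0.294 and 0.169 in Mfp2-/- cells, not called. Purine receptors had 7 of 12 higher, including the adenosine receptors Adora2a (at least 6.06-fold) and Adora2b (2.83), and 3 lower, including the ATP-gated channel P2rx7 at 1.32 and 0.240 and adenosine deaminase, Ada, at 8.15 and 1.55.

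Macrophage lineage factors had 6 of 18 higher and 3 lower, and their median of 0.55 was -0.11 with the mean of a gene's probes. Cebpd was at a relative signal of 12.8 untreated and 101 with LPS, and higher too were Cebpb (1.58), which drives acute inflammatory genes, and Ets2 (1.99). Cebpa was lower (log2 difference -1.21). The inhibitors of differentiation Id3 and Id1 were at 0.771 and 5.25, and at 0.230 and 1.42. In wild type Id3 was at 6.57 and 3.004, a change in the other direction, and Id1 at 1.38 and 1.98. With 1 array a group this difference between genotypes was not tested. Osteoclast and fusion genes, of interest since RAW264.7 cells can form osteoclasts, had 4 of 14 higher, among them Src (4.27) and Dcstamp (1.37), and 2 lower, the master factor Nfatc1 (-1.47) and Itgb3.

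Of 24 measured BCL2 family and cell death genes 8 were higher and 3 lower. The protective genes Bcl2a1d and Bcl2l1 were at a relative signal of 37.0 untreated and 267 with LPS, and at 20.0 and 134, and Cflar, which blocks caspase-8, at 4.28 and 21.0. Mlkl, the executor of necroptosis, was also higher (log2 difference 2.48). Bmf, which promotes death, was at 6.18 and 0.674, 9.18-fold lower, and Pmaip1 differed by -1.05. Of the growth arrest and p53 target genes 9 of 19 were higher and 5 lower. Plk2 was at 0.0638 and 4.17, Plk3 at 0.922 and 27.5, Gadd45b at 1.36 and 28.1 and the cell cycle inhibitor Cdkn1a at 13.1 and 42.5. Other genes that p53 controls were lower, such as Phlda3 (-2.16), Sesn1 (-2.07), Zmat3 (-1.90) and Trp53inp1 (at least 7.63-fold). Gadd45a was at least 12.5-fold higher by its main probe, with -2.24 by another.

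Genes under ATF4, the factor of the integrated stress response, all lay above 0 (18 of 19 with spike-in centring). Of 19 measured 13 were higher and 0 lower, with a median of 1.74 (11 of 19 and 1.35 in wild type). Cth, an enzyme of cysteine synthesis, was at a relative signal of 0.113 untreated and 10.1 with LPS, the pseudokinase gene Trib3 at 1.52 and 46.0, Chac1, which degrades glutathione, at 2.03 and 51.4, and Ddit3, which encodes CHOP, at 0.616 and 10.5. Each of these 4 was also higher in wild type, by 4.21, 3.88, 3.57 and 2.79. Atf4 itself was at 153 and 513, and higher too were the asparagine synthetase Asns (1.65), Psph (1.53) and Mthfd2 (1.49). The serine synthesis genes Phgdh (log2 difference 0.11), Psat1 (0.27) and Shmt2 (0.52) were not called.

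tRNA synthetases, several of which are ATF4 targets, had 6 higher and 0 lower members among 19, and 16 lay above 0 (median 0.79). In wild type 2 were higher (median 0.45). Nars was at a relative signal of 10.9 untreated and 30.4 with LPS, Sars at 46.3 and 126, Aars at 30.1 and 79.3 and Cars at 23.5 and 60.8. Rars (log2 difference 1.17) and Tars (1.02) completed the called genes, and Dars (-0.53) was the lowest. The composite ATF4 motif TGATGNAAT was in 3 of 12 promoters of these genes in the table and in 0.965% of all promoters. The stretch before the start of Aars, at chr8:111033642-111033841, plus strand, is shown. Aars is a called member with a match in its 200 bases, on the opposite strand and in capitals.
Aars: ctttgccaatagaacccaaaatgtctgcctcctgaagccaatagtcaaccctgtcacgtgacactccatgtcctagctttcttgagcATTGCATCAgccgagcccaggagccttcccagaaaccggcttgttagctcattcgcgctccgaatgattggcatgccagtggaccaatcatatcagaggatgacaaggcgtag

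Amino acid transporters had 8 of 21 higher and 1 lower. Besides Slc7a11, the lysosomal exporter Slc15a3 was at a relative signal of 1.63 untreated and 80.2 with LPS. Slc3a2 (1.86), the heavy chain partner of several transporters, was higher, as was the arginine carrier Slc7a1 (1.27), and the neutral amino acid carrier Slc43a2 was lower, at 4.78 and 0.401. Genes of the endoplasmic reticulum stress response were higher in 6 of 18 cases, with Dnajb9 (2.27), Herpud1 (1.94) and the chaperone BiP gene Hspa5 at 40.5 and 120.0 (log2 difference 1.57; 0.81 in wild type). Xbp1 differed by -0.0524. All 16 measured cytosolic chaperones lay above 0 (13 with spike-in centring), and 2 were called, Hsph1 (1.07) and Hspa4l (1.03), a share near the background.

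Central carbon metabolism moved by less than 2-fold for most genes. In glycolysis 4 of 25 genes were higher and 2 lower: the entry enzyme Hk2 was at a relative signal of 6.05 untreated and 17.2 with LPS, Eno2 differed by 1.33, Pfkp by 1.13 and the hexose carrier Slc2a6 by 1.17, and Pfkm was lower at 3.34 and 0.745. Gapdh, often taken as a reference gene, differed by 0.31. Of 26 genes of the TCA cycle 0 were higher and 1 lower, the latter being Idh1 (log2 difference -1.02), and 21 lay below 0 (median -0.37; -0.27 in wild type). The subunits of succinate dehydrogenase were between -0.73 (Sdhd) and -0.29 (Sdhc). Of 33 respiratory chain genes 27 lay below 0 (median -0.34; -0.17 in wild type) and 1 was called, Cox4i1, at 88.5 and 242 (0.21 in wild type). With spike-in centring the medians were -0.60 and -0.57, and with median scaling -0.22 and -0.19, so both stayed below 0.

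Hypoxia targets were called in both directions, 4 higher and 4 lower of 15, with Hilpda at a relative signal of 3.44 untreated and 21.1 with LPS, Vegfa (1.18), Adm (-1.41) and Car12 (-1.51). In the pentose phosphate pathway 1 of 9 genes was lower, Shpk (log2 difference -1.07), which makes sedoheptulose phosphate. G6pdx, the entry enzyme, differed by 0.45 and was not called.

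Of 18 measured genes of peroxisomal beta-oxidation, the pathway to which MFP2 belongs, 6 were lower and 0 higher, and 17 lay below 0 (median -0.77). In wild type 2 of 18 were lower (median -0.46). With spike-in centring 9 were lower in Mfp2-/- cells (median -1.0) and with median scaling 6 (median -0.63). Acox3, an oxidase of the first step for branched chains, was at a relative signal of 2.09 untreated and 0.450 with LPS, though another of its 4 probes gave 0.31. The thiolase genes of the last step, Acaa1a and Acaa1b, were at 188 and 81.7, and at 11.3 and 4.15, against differences of -0.18 and -0.46 in wild type. Acaa1a and Acaa1b are close copies, and which of them a probe reads was not tested. Hacl1, a lyase of alpha-oxidation, differed by -1.97 and Ech1 by -1.26. The sterol carrier thiolase Scp2 differed by -0.72, not called. Peroxisome biogenesis genes did not share this direction: 10 of 16 lay above 0 (median 0.24, or 0.00784 with spike-in centring) and 1 was called, Pex10, which was lower (log2 difference -1.19).

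In the mitochondria 3 of 19 fatty acid oxidation genes were lower and 0 higher (median -0.61; -0.20 in wild type), a share near the background of 12.5%. With spike-in centring 6 were lower (median -0.84). Cpt1a, which admits acyl chains to the mitochondrion, was at a relative signal of 5.24 untreated and 1.07 with LPS, Hadh at 7.73 and 2.31 and Acaa2 at 39.5 and 14.2. For these 3 genes the untreated level was higher and the LPS level lower in Mfp2-/- than in wild-type cells, where they were -1.17, -1.22 and -0.95. They are the genes called lower on the Mfp2-/- arrays, a choice that favours this pattern.

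**Figure D4:**
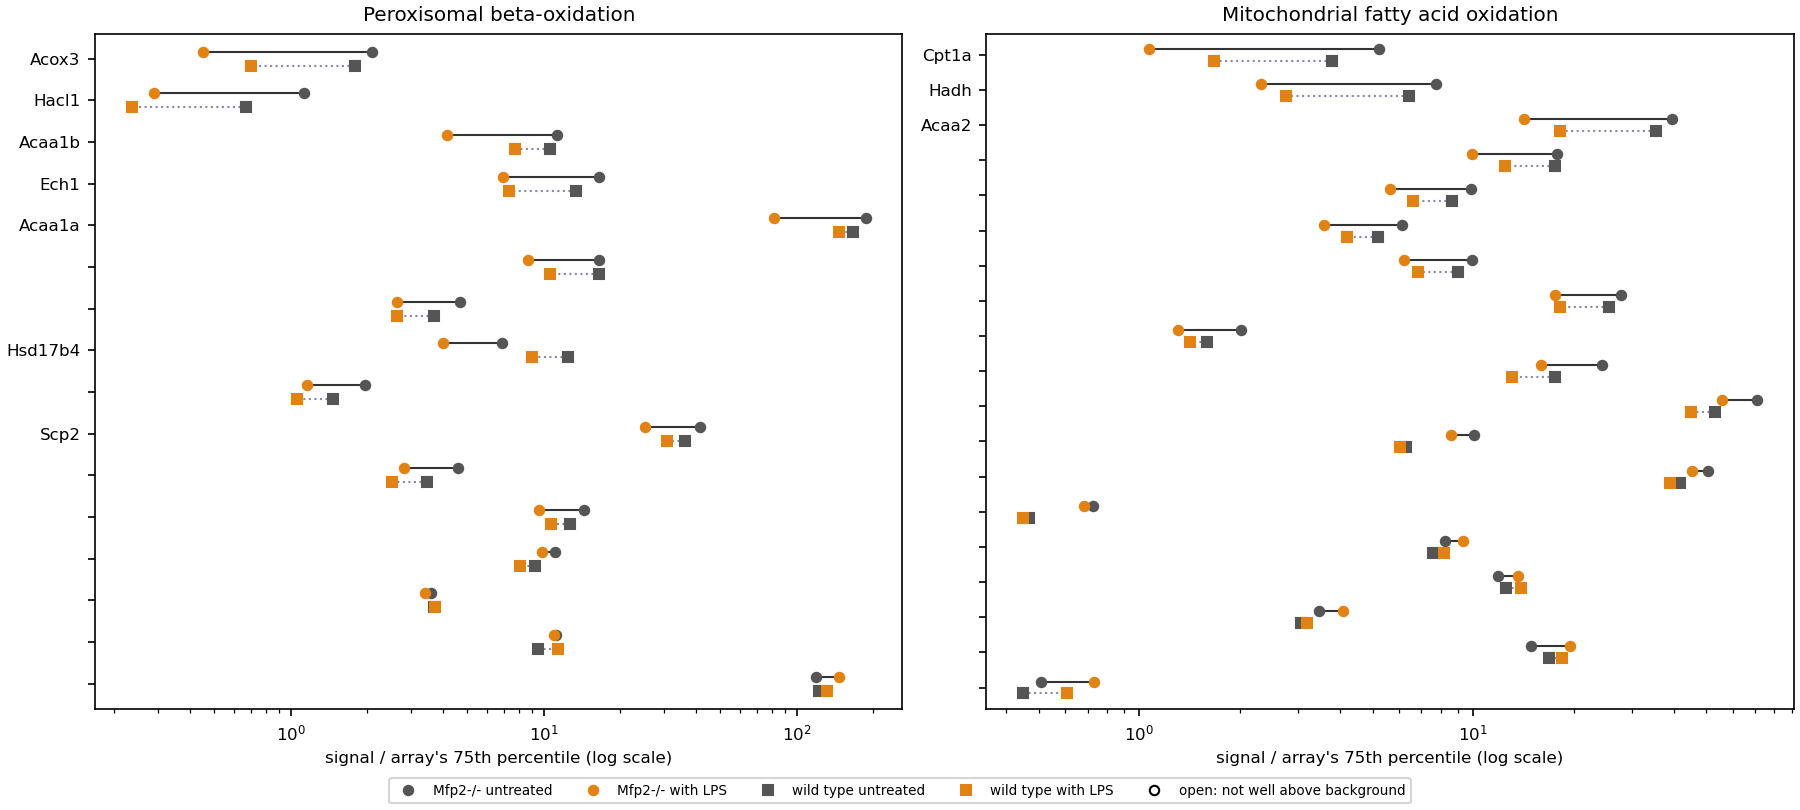
Relative signal (log scale) of measured genes of peroxisomal beta-oxidation (left) and mitochondrial fatty acid oxidation (right), ordered by their difference in Mfp2-/- cells, 1 array per group. Circles joined by solid lines are Mfp2-/- cells and squares joined by dotted lines wild type, grey untreated and orange with LPS. Genes described in the text carry their name, and on the left 16 of the 18 measured genes are drawn. There 15 of 16 Mfp2-/- lines run to a lower signal with LPS, and those of Acox3 and Hacl1 are the longest.

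Other lipid genes were divided. Of 22 genes that build, lengthen or desaturate fatty acids 3 were higher, Fads3 (log2 difference 2.36), Elovl3 (2.05) and Acsl4 (1.3), and 4 lower, the desaturases Scd1, at a relative signal of 2.90 untreated and 0.743 with LPS, and Scd2, at 133 and 51.4, with Elovl6 (-1.73) and Acsl3 (-1.21). Fasn differed by -0.68. Cholesterol synthesis had 2 of 26 higher and 2 lower, among the latter Tm7sf2 (log2 difference -1.68). Of the LXR target and efflux genes the exporter Abca1 was higher (1.56), the exporter Abcg1 was at 25.6 and 7.76, 3.29-fold lower against a difference of -0.19 in wild type, and Apoc2 differed by -2.07 (-0.83). Ch25h, which makes the antiviral 25-hydroxycholesterol, was at least 3.002-fold higher. Of the PPAR and lipid droplet genes 4 of 18 were higher, such as Fabp4, at 0.127 and 3.10, and the droplet coat gene Plin2 (1.5), and 5 lower, such as Angptl4 (-2.76) and Ppargc1b (-2.63). Among sphingolipid genes 4 of 22 were higher and 4 lower: Cers4 differed by 2.24 and both sphingosine kinases were higher (Sphk1 by 1.90, Sphk2 by 1.28), and the ceramide kinase Cerk was at 27.3 and 6.27.

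Lysosome and proteasome lists lay near the background. Of 29 lysosomal genes 2 were higher, the proton pump subunits Atp6v0a1 (log2 difference 1.83) and Atp6v1h (1.24), and 2 lower, Ctsh (-2.20) and Man2b1 (-1.45). All 25 constitutive proteasome subunits lay above 0 (23 with spike-in centring; median 0.61; 0.52 in wild type) and 2 were called, Psma6 (1.58) and Psmd11 (1.27). Clock genes had 5 of 15 higher and 4 lower. Higher were the repressor gene Nfil3 (2.08), Arntl, which encodes the clock activator BMAL1 (1.91), and Per1 (1.81), and Dbp (-1.77), Nr1d2 (-1.24) and Tef (-1.18) were lower.

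The ribosome lists had shares of calls near or below the background. Of the nucleolar genes of ribosome assembly 3 of 24 were higher (1 with spike-in centring; median 0.36; 0.0443 in wild type), with Ddx21 at a relative signal of 17.2 untreated and 39.4 with LPS. Cytosolic ribosomal protein genes were narrow, with a median of 0.19, which was below 0 with quantile normalization, spike-in centring and the deposited values. The 1 call among 36, Rps24 (log2 difference 3.43), rests on a probe with -0.12 in wild type, and other probes of this gene gave as little as -0.69. Mitochondrial ribosomal protein genes had 2 of 24 lower (4 with spike-in centring), Mrpl18 (-1.26) and Mrps35 (-1.05).

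Of 30 measured genes of DNA replication and nucleotide synthesis 21 were lower and 0 higher, and all lay below 0 (median -1.35; -1.26 in wild type). Tk1, the thymidine kinase of S phase, was at a relative signal of 47.9 untreated and 3.32 with LPS, 14.4-fold lower. The replicative helicase subunits Mcm6 and Mcm7 were at 118 and 38.4, and at 68.3 and 20.6, and Mcm3, which differed least of the 6 subunits, at 115 and 65.7. Dut, which keeps uracil out of DNA, differed by -2.22, the histone chaperone gene Chaf1b by -2.22, the polymerase gene Pole by -2.07 and the ligase Lig1 by -1.95. With spike-in centring 29 of these genes were lower (median -1.59) and with median scaling 18 (median -1.21), and all lay below 0 in both.

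All 30 mitosis and chromosome segregation genes also lay below 0, 20 of them called, with a median of -1.23. In wild type all 30 were called, with a median of -2.07. Ccna2, the cyclin of S phase and mitotic entry, was at a relative signal of 35.2 untreated and 6.41 with LPS, and the proliferation marker Mki67 at 83.0 and 20.5. Ube2c, a ubiquitin-conjugating enzyme of mitotic exit, was at 49.4 and 39.6 in Mfp2-/- cells, a difference of -0.32, and at 56.6 and 19.7 in wild type, -1.52. The same pattern of a smaller decrease in Mfp2-/- cells was seen for Cdk1 (log2 difference -0.43 against -1.38), Cdc20 (-0.58 against -1.71), Bub1b (-0.65 against -1.88) and Cenpe (-0.65 against -2.02). Ube2c and these genes were named after their values were seen, from those not called in Mfp2-/- cells, a choice that favours this pattern. The difference between genotypes was not tested, since each has 1 array per condition.

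Among cell cycle regulators 13 of 27 were lower and 4 higher. The factors E2f1, E2f2, E2f7 and E2f8, which govern S phase genes, were at a relative signal of 7.24 untreated and 1.31 with LPS, at 12.6 and 2.59, at 3.496 and 0.427, and at 9.54 and 1.43. Foxm1, the factor of mitotic genes, was at 11.5 and 2.22. Cyclins of G1 diverged, as Ccnd2 was higher (0.0823 and 2.59) and Ccnd1 and Ccne1 lower (log2 difference -1.39 and -2.04, against -0.36 and -0.49 in wild type). Cdk6 was higher in Mfp2-/- cells (1.58; 0.18 in wild type). Of 20 histone genes 13 were lower and 0 higher (median -1.82). H2ac4 was at 119 and 8.30 and H1f3 at 3.78 and 0.397. The replacement variant H3f3b, made outside S phase, differed by 0.98. Histone genes of a family share sequence, and which copies a probe reads was not tested.

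**Figure D5:**
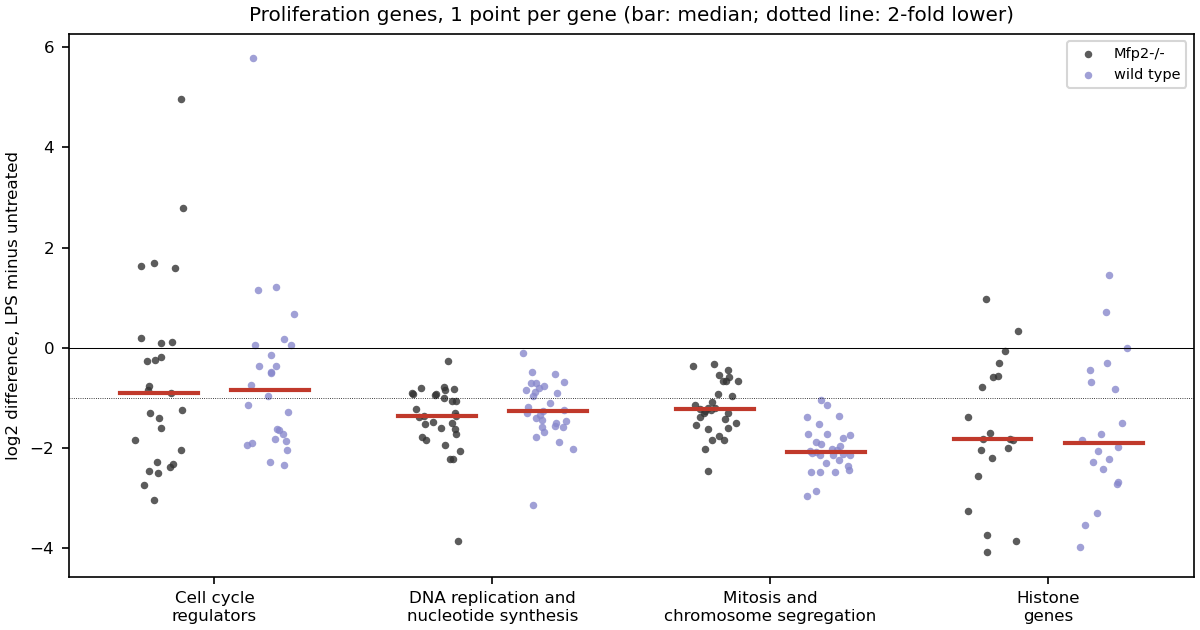
Log2 difference between LPS-stimulated and untreated cells (y axis) for each measured gene of 4 proliferation lists, in Mfp2-/- (dark) and wild-type (light) cells, 1 array per group. Bars are medians and the dotted line marks 2-fold lower. For mitosis genes the medians are -1.23 and -2.07, and for DNA replication genes -1.35 and -1.26.

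Promoters of these lists are shown for the motifs of E2F (TTTGGCGC or TTTCGCGC) and of the CCAAT box, each read on both strands and in capitals. Mcm6 lies at chr1:128359706-128359905, minus strand and Pola1, a subunit of DNA polymerase alpha (8.72 and 3.10), at chrX:93632156-93632355, minus strand, both with E2F motifs, of which a pair in Mcm6 overlaps. Mki67 lies at chr7:135716380-135716579, minus strand and the spindle motor gene Kif11 (2.80 and 0.784) at chr19:37376182-37376381, plus strand, with CCAAT boxes.
Mcm6: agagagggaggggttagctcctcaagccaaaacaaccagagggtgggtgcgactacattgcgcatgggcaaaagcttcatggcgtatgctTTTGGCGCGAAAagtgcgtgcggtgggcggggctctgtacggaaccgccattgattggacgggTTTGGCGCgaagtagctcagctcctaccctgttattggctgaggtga
Pola1: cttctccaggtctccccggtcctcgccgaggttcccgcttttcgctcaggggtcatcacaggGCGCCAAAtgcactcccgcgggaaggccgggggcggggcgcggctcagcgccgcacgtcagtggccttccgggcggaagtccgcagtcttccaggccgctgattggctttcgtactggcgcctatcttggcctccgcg
Mki67: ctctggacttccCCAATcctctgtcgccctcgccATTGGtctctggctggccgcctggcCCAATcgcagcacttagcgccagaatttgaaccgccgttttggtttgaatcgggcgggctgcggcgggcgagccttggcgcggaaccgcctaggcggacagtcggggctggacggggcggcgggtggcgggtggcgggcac
Kif11: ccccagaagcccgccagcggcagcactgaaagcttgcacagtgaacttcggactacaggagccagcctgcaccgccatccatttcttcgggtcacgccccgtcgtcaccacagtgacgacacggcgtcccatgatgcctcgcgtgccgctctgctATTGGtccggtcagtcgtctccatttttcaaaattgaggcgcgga
Of the promoters of DNA replication genes 10 of 30 held an E2F motif, against 2.67% of promoters of all genes lower, 0.729% of those higher, 1.45% of those of genes compared and 0.813% of all promoters. Among promoters of mitosis genes 1 of 26 held it. The CCAAT letters were in 19 of 26 promoters of mitosis genes, 42.2% of those of genes lower, 35.8% of those of genes higher, 37.9% of those of genes compared and 37.4% of all. They were also in 18 of 30 promoters of DNA replication genes, 12 of 21 of ATF4 targets and 7 of 12 of tRNA synthetases. A high share was thus not particular to mitosis genes or to lists of lower genes. Matches of different motifs can share bases. The CRE motif TGACGTCA was in 2.74%, 1.89%, 3.03% and 1.79% of the promoters of genes higher, of genes lower, of genes compared and of all, and the E-box CACGTG in 9.12%, 9.12%, 9.58% and 7.15% of them. For both motifs the shares among genes higher and among genes lower lay above that of all promoters and below that of genes compared. The table held promoters of 10834 of the 18388 genes compared, so these shares describe only that part.

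Markers of other cell types were mostly below background. Of 10 T and NK cell markers 4 were above it with LPS, and their summed relative signal was 5.21 untreated and 13.5 with LPS in Mfp2-/- cells, and 4.53 and 10.1 in wild type. Lck, a kinase of T cell receptor signalling, was at 3.09 and 11.1, and Cd3d was at least 2.06-fold higher, while Cd3g, Cd8a, Cd2, Ncr1, Klrb1c and Nkg7 were below background on both Mfp2-/- arrays. Of 6 B cell markers 1 was above background with LPS, Cd79b, at least 8.198-fold higher, and Cd79a, Ms4a1, Pax5 and Blk were not. Among neutrophil and mast cell markers Elane differed by 0.39 and S100a8 by 0.64, with Mpo, Ly6g, S100a9, Ngp, Mcpt4 and Cma1 below background. Of 10 macrophage markers 2 were higher, Adgre1 and Cd14, and 2 were lower by their main probe, Csf1r and Fcgr3 (median -0.079). Adgre1, which encodes F4/80, was at 1.76 and 14.4, Lyz2 at 438 and 436 and Cd68 at 196 and 177.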

How the data were processed

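Cy3-labelled RNA of 4 samples was hybridised to 4 one-colour Agilent arrays, 1 per group. Per the file headers, the authors extracted the spots with Feature Extraction 10.7.1.1, while the submitters' processing notes give version 9.5.1.1; the deposited values are processed signal intensities with background subtracted and no normalization between arrays. The deposited flags of each spot (other values) mark signals well above background, saturation and outliers, and outlier spots were left out. A deposited table of intensities, which matched quantile normalization of the probe means within 0.01 log2 for 56544 to 56578 of 56605 probes, served as an alternative. The sources used here give neither the dose and duration of LPS nor the method of knockout.

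Spots of a probe were averaged, divided by the 75th percentile of the probe means of the array and taken to log2. A gene was read by 1 probe, its main probe, and the counts and medians of the lists rest on it. Of 56605 probes 32989 were named through the accession, 10228 through the symbol and 519 through a synonym in the RefSeq table, and 12869 kept the name in the files. Calls need a 2-fold difference or a 2-fold bound. No p-value was computed, and the number of arrays limits the precision. Alternatives were normexp (limma 3.58.1, R 4.3.3, offset 50), quantile normalization, median scaling, 7 spike-in probes, other filters and thresholds, the mean of a gene's probes, the deposited table and, chosen after seeing the data, the 75th percentile over spots.

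Members and lists were chosen with earlier results of these data known. The 68 lists hold 1348 genes, 1341 of them on the array, 20 under an older symbol. Named by rule were Hsd17b4, the 10 largest measured increases and decreases that hold under normexp and quantile normalization, the 5 largest bounds each way, all members of sensing and regulator lists and up to 6 members with the largest difference of any other list, in all 500 genes. A further 103 genes were named after their values were seen, and results on a few genes are not reported here. Promoters are those of RefSeq (GRCm38.p6), and motifs were searched on both strands. Printed promoters were chosen from the called members with the largest difference and a match in the 200 bases before the start. Promoters of an excluded chromosome were not eligible for printing. Scripts used Python 3.11.15, numpy 2.4.6, pandas 2.3.3 and matplotlib 3.10.9.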

Additional observations from a re-analysis of the deposited data

Results flagged for a closer look

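Id3 and Arhgap31 passed the 2-fold threshold in opposite directions in the 2 genotypes. Id3, an inhibitor of differentiation, differed by 2.77 on the log2 scale in Mfp2-/- cells and by -1.13 in wild type, where its level was 6.57 untreated and 3.004 with LPS. With LPS the levels were 5.25 in Mfp2-/- and 3.004 in wild-type cells, and the untreated levels, 0.771 and 6.57, lay further apart. Arhgap31, a GTPase-activating protein gene, differed by -5.40 in Mfp2-/- cells with the dim array at its own signal, a bound of at least 42.2-fold lower, and by 1.38 in wild type. Its second probe gave -0.0435 in Mfp2-/- cells, so its direction there is uncertain. With 1 array in each group the difference between genotypes was not tested for either gene.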

How the results depend on the processing

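No paired analysis was possible because each group has 1 array. Of 2027 higher and 2294 lower genes, no filter on dim probes gave 3475 and 3963, a 1.5-fold threshold 3720 and 4104, and a 4-fold threshold 640 and 485. Normexp background correction gave 1415 higher and 1343 lower genes, and the cause was not tested. The counts stayed within 1.5 times with quantile normalization (2005 and 2305), median scaling (2485 and 1865), spike-in centring (1474 and 3191), the percentile over spots (2044 and 2274), the authors' deposited table (1982 and 2278), both arrays above background (1617 and 1789) and the mean of a gene's probes (1993 and 2262). Of 440 called genes named by the rule or in the text, all 440 kept their direction under the background, normalization, scaling and deposited-table alternatives. For median scaling (shift 0.14), spike-in centring (-0.23) and the percentile over spots this was fixed in advance. Each adds the same amount to every difference, too little to reverse a 2-fold one. The largest measured increases and decreases were chosen to hold under normexp and quantile normalization, so these do not check their direction. The call was kept by 403 of the 440 genes with normexp, 407 with spike-in centring and 426 to 439 with the others. With the mean of a gene's probes 437 kept their direction, and Ikbkg (-0.24), Itga6 (-0.45) and Tnfrsf13b (-0.30) were below 0. The median of B cell markers, which rests on 1 gene, was -0.12 with no filter. Medians close to 0 changed sign for LXR targets and fibroblast, endothelial and epithelial markers (normexp), for cytosolic ribosomal proteins (quantile, spike-in centring and deposited table), for MHC class II, LXR targets and macrophage markers (median scaling) and for osteoclast genes (spike-in centring). With no filter the median of scavenger and lectin receptors turned from 0.48 to -0.18, and that of fibroblast, endothelial and epithelial markers changed sign too. With the mean of a gene's probes that of macrophage lineage factors turned from 0.55 to -0.11, and that of MHC class II also changed sign. With spike-in centring, genes higher fell from 7 to 2 for MHC class I, from 5 to 3 for interleukin receptors, from 4 to 2 for glycolysis and from 2 to 0 for heat shock chaperones, while genes lower numbered 4 in place of 2 for the LPS receptor and for cholesterol lists, and 3 in place of 1, 1 and 0 for amino acid transporters, the TCA cycle and the respiratory chain. With median scaling, genes lower numbered 3 in place of 5 for interleukin receptors and 2 in place of 4 for hypoxia targets, and genes higher 5 in place of 2 for lysosomal genes and for heat shock chaperones. The 2 arrays per genotype limit the precision, and signals of about the background give bounds only.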

Other observations

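Genes outside the lists were also among the larger differences in Mfp2-/- cells; those named here were chosen after their values were seen. Phlda1, a pleckstrin homology domain gene, was at a relative signal of 1.59 untreated and 130.1 with LPS, and at 4.78 and 85.0 in wild type. Rgs16, a brake on G protein signalling, was at 0.233 and 18.4, and at 2.89 and 53.7 in wild type. Procr, the receptor of protein C, was at 0.496 and 25.1, and Hcar2, the receptor of niacin and hydroxybutyrate, at 0.144 and 5.84. The protease inhibitor gene Slpi was at 0.389 and 27.9, with log2 differences from 1.08 to 6.16 over its 2 probes. Dnmt3l, a cofactor of DNA methylation in germ cells, was at 0.198 and 11.9, and Pdcd1, which encodes the receptor PD-1 whose ligand gene Cd274 was also higher, at 0.313 and 8.93. The kinase gene Pim1 (log2 difference 4.47), the growth factor genes Vegfc (4.57) and Pdgfb (3.53), and Arid5a (4.18), which stabilises Il6 mRNA, were higher as well, with 3.17, 2.73, 1.69 and 3.54 in wild type.

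Among decreases, Gas6, the ligand of the TAM receptors Axl and Mertk, was at 1.62 and 0.109 in Mfp2-/- cells and at 0.365 and 0.0814 in wild type. Hacd4, a dehydratase gene of very long chain fatty acid elongation, was at 1.79 and 0.121, with all 3 probes between -4.02 and -3.44 on the log2 scale, and at 0.643 and 0.228 in wild type. Chst1, a sulfotransferase gene, was at 281 and 33.1, and Kbtbd11 at 94.4 and 6.86. Of the non-coding host genes, Mir22hg was at 0.522 and 5.78 and Mir155hg, the precursor gene of miR-155, at least 18.9-fold higher in Mfp2-/- and 14.8-fold in wild-type cells. Among long non-coding RNA genes 113 of 921 were higher and 134 lower, and among protein-coding genes 1490 and 1731 of 12474.

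A few single probes differed in Mfp2-/- cells alone, and the difference between genotypes was not tested. Rpl17-ps8, a ribosomal protein pseudogene, was at 0.424 and 15.9 in Mfp2-/- cells and at 14.4 and 14.5 in wild type. Bin1 was at 0.479 and 11.9, and at 9.08 and 11.2, while its second probe gave a log2 difference of -0.36. Ano10 was at 8.10 and 0.621, and at 7.62 and 9.24, while its second probe gave 0.12.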
